A study of Mus musculus with 6 samples.

Results

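The genes of the mitochondrial chromosome were examined by annotated strand in RNA-seq libraries of 6 mouse melanomas. Members were all 37 genes annotated on chromosome M of GENCODE mouse GRCm38, matched by Ensembl identifier, among the 53801 genes of the count tables. The forward strand carries 28 of them (12 mRNA, 2 rRNA and 14 tRNA genes) and the reverse strand 9 (the mRNA gene mt-Nd6 and 8 tRNA genes).

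B16-F10, a line of mouse skin melanoma, gave rise to all tumours after injection under the skin of awake wild-type C57BL/6 mice, described in the study as male C57BL/6J animals of 10 to 12 weeks. The 3 SEVO tumours came from cells exposed in culture to 2% sevoflurane, an inhaled anaesthetic, before they were injected, and the 3 CTRL tumours from cells without this priming. The interval between exposure and injection differs between the study's methods and its legend and is not given here. The study's methods state that each experimental group had its own newly thawed frozen stock of the line. Whether CTRL and SEVO count as separate groups in this sense is not clear from the sources used here. If they do, priming and stock cannot be told apart. RNA came from small pieces of tumour, and library preparation and sequencing ran as 1 batch for all tumours. The labels name the cell type as monocytes. All 9 melanocyte markers and all 10 macrophage markers had reads, summing to 673–1983 and 110–322 reads per 1000000 counted reads in a tumour, and the tissue is treated here as whole tumour. In such bulk samples fewer cells of a type and less RNA per cell cannot be told apart.

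Counted reads numbered 723431 to 1348676 per tumour, which was 2.06–4.61% of the uniquely aligned reads. The predicted genes Gm10800 and Gm10801 took 1.31% of the counted reads in CTRL tumour 2 and 49.0% in CTRL tumour 1. Actb, which encodes the cytoskeletal protein β-actin, had only 57 to 228 reads. Beside the melanocyte and macrophage markers, all 9 skeletal muscle, 5 erythroid, 6 adipocyte and 5 keratinocyte markers had reads.

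Mitochondrial DNA is a small circle that encodes 13 subunits of the respiratory chain and ATP synthase, together with the 2 rRNAs and 22 tRNAs that translate them. Each strand is transcribed as a long precursor, and most mRNAs and rRNAs are released when the tRNAs between them are cut out. The precursor of each strand runs across the genes of the other strand in antisense. The strand setting of the libraries and of the read counting is not given in the sources used here. Strand therefore means the annotated strand of a gene, and reads from its own transcript and from RNA of the opposite strand cannot be told apart.

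The reverse-strand tRNA genes are shown because neighbours among them had very different counts. The following 4 lie side by side on the reverse strand of GRCm38 and had 98, 0, 6080 and 0 reads over the 6 tumours. They are mt-Ta (alanine) at chrM:5018-5086, mt-Tn (asparagine) at chrM:5089-5159, mt-Tc (cysteine) at chrM:5192-5257 and mt-Ty (tyrosine) at chrM:5260-5326. The sequences are those of the GENCODE transcripts, read 5′ to 3′ along the gene, and capitals mark the anticodon.
mt-Ta: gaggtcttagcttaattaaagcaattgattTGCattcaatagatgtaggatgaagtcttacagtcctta
mt-Tn: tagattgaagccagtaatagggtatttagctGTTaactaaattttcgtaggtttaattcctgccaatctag
mt-Tc: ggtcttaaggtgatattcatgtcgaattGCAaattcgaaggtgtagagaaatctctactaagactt
mt-Ty: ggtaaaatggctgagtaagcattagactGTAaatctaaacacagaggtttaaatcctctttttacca

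The other 4 reverse-strand tRNA genes are mt-Tq (glutamine, chrM:3772-3842), mt-Ts1 (serine, chrM:6870-6938), mt-Te (glutamic acid, chrM:14071-14139) and mt-Tp (proline, chrM:15356-15422), again with the anticodon in capitals.
mt-Tq: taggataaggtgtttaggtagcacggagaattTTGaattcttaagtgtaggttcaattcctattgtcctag
mt-Ts1: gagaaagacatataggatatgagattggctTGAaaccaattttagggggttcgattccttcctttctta
mt-Te: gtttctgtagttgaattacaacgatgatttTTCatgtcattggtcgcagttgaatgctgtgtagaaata
mt-Tp: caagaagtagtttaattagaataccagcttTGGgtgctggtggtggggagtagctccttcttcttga

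Of the 37 genes, 23 had at least 1 read (7 mRNA, 2 rRNA and 14 tRNA genes) and 14 had 0 reads in every tumour. A count of 0 allowed at most 2.22 to 4.15 reads per 1000000 counted reads, depending on the tumour, and this limit covers counting error only. The 6 mRNA genes at 0 were mt-Co2 and mt-Co3 (subunits of complex IV), mt-Atp6 and mt-Atp8 (ATP synthase), and mt-Nd3 and mt-Nd4l (complex I). The 8 tRNA genes at 0 were mt-Tn, mt-Ty and mt-Ts1 on the reverse strand and mt-Td, mt-Tk, mt-Tg, mt-Tr and mt-Th on the forward strand.

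Of these 14 genes, 11 formed an unbroken run on the chromosome, from mt-Ts1 to mt-Nd4l. The run matched a nuclear copy of mitochondrial DNA on the reverse strand of chromosome 1, where 7 annotated pseudogenes follow the same order (chr1:24611535-24616197). The pseudogenes together span positions 6394 to 11042 of chromosome M, 4649 bases. All 11 genes wholly inside that span (6 mRNA and 5 tRNA) were at 0, against 3 of the 26 other genes (mt-Tn, mt-Ty and mt-Th). The authors kept only reads that aligned to a single place, and entries aligned to several places made up 31.7–41.7% of the aligned reads tallied in a tumour.

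The copied mRNA genes were matched in windows of 50 bases that recur exactly in an annotated nuclear transcript. Copied windows made up 100% of mt-Co2, 99.5% of mt-Atp6, 99.9% of mt-Co3, 98% of mt-Nd3 and 98.8% of mt-Nd4l. They also made up 62.2% of mt-Nd4 and 51.1% of mt-Co1, which lie across the edges of the span and kept reads. Of the windows of mt-Co1, 28.7% recurred in Gm29216 of the chromosome 1 copy and 27.5% in the pseudogene Gm13340 on chromosome 2. The share was 8.19% for mt-Nd2 (in Gm13339, also on chromosome 2), 7.61% for mt-Nd5 and 1.04% for mt-Rnr2, and 0% for mt-Nd1, mt-Nd6 and mt-Cytb. The annotation has no transcript for the copies of mt-Atp8 and of the 5 tRNA genes, whose place inside the span was taken from its flanking pseudogenes.

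The pseudogene of mt-Nd3, Gm28438, had reads although mt-Nd3 had none. It held 47, 33 and 35 reads in CTRL and 37, 42 and 36 in SEVO tumours. The other 6 pseudogenes of the copy had 0 reads, except 1 read of Gm29216 in CTRL tumour 1. Over the 345 bases of Gm28438 the identity with mt-Nd3 was 99.71%, and the only difference was T3C, with the base of mt-Nd3 first and positions counted from 1 at its first base. The first 60 bases of both are shown with this base in capitals, from chrM:9459-9518 on the forward strand and chr1:24613060-24613119 on the reverse strand of GRCm38.
mt-Nd3: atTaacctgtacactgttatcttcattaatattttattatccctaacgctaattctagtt
Gm28438: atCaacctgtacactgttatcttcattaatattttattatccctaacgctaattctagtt

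**Figure D1:**
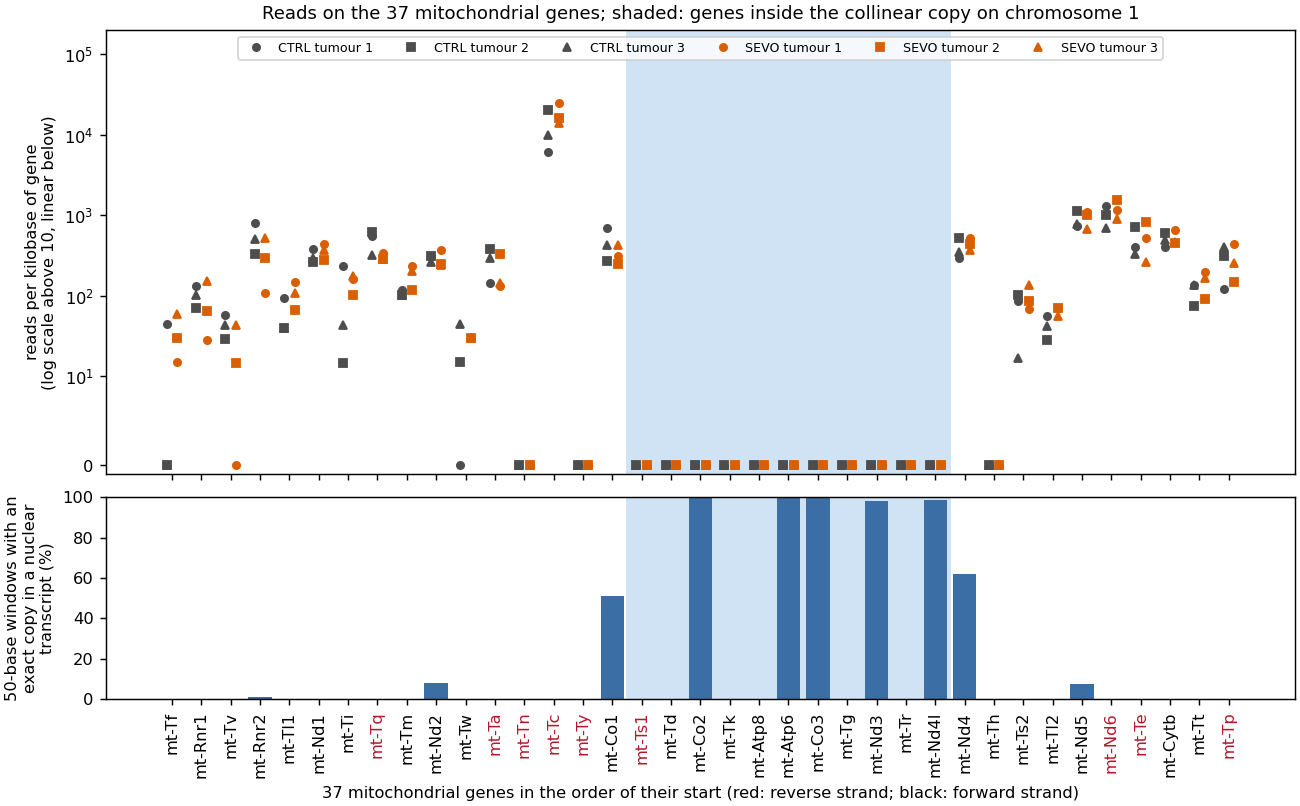
Reads per kilobase of each of the 37 genes in the 6 tumours (upper panel, symmetric log axis, 1 point per tumour) and the percentage of each gene's 50-base windows with an exact copy in an annotated nuclear transcript (lower panel), in the order of the genes on the chromosome. The 11 genes inside the chromosome 1 copy (shaded) are at 0 in every tumour, and mt-Tc is the highest gene in all 6.

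Per kilobase of gene, the reverse strand held more reads than the forward strand in every tumour. Forward-strand genes had 377, 354 and 318 reads per kilobase in CTRL and 349, 310 and 316 in SEVO tumours, over a summed length of 14373 bases. Reverse-strand genes had 1102, 1887 and 1042 reads per kilobase in CTRL and 2198, 1864 and 1360 in SEVO tumours, over 1068 bases. These values are not scaled to the counted reads of a tumour, which ran from 723431 to 1348676. On this scale the forward level varied little between tumours, while the reverse level was lowest in CTRL tumours 1 and 3 and highest in SEVO tumour 1. The ratio of the strands was 2.92 to 6.3, with a mean log2 ratio of 2.17 over 6 tumours (exact sign-flip permutation test, two-sided p = 0.031, the smallest that 6 tumours allow). These lengths include the genes inside the chromosome 1 copy, which are at 0 and lie mostly on the forward strand. Without them, a choice made after the data had been seen, the ratio was 2.41 to 5.21 and its mean log2 value 1.89, or 3.72-fold.

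The cysteine tRNA gene mt-Tc held a large part of the reverse-strand reads. It had 409, 1359 and 660 reads in CTRL and 1650, 1077 and 925 in SEVO tumours. It was lowest in CTRL tumour 1 and highest in SEVO tumour 1, and the groups overlapped. Its reads were 6.2–22.4% of all mitochondrial reads and 34.7–70.3% of the reads on the reverse strand. At 15354 ± 6866 reads per kilobase (SD, n = 6) mt-Tc ranked 5 among all genes of the series. Without mt-Tc the mean log2 ratio of the strands was 0.95, a 1.93-fold difference, and without mt-Tc and the genes inside the chromosome 1 copy it was 0.68, or 1.6-fold. Both were above 0 in 6 of 6 tumours (exact sign-flip permutation test, p = 0.031 for each), and both settings were chosen after the data had been seen. In both, the forward strand still held the rRNA genes, whose reads the authors had removed in part, and mt-Co1 and mt-Nd4 at full length. With mt-Tc kept, the mean log2 ratio was 2.14 without the rRNA genes and 1.84 without genes mostly copied elsewhere. Leaving out mt-Tc together with either of these sets was not tested.

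Reads per kilobase compare most directly between genes of like length. A read that covers only the end of a short tRNA gene can be counted too, and the read length is not given in the sources used here. Reads tallied as ambiguous between genes, 3838 to 6114 in a tumour over all genes, are in no gene's count. How many of them fell on tRNA genes and their neighbours is not known, so like length alone does not make the strands comparable. Among tRNA genes, 5 of 8 on the reverse strand and 9 of 14 on the forward strand had reads. The 5 reverse-strand genes with reads held 98 to 6080 over the 6 tumours and the 9 forward-strand genes with reads 10 to 60. These ranges did not overlap only because genes at 0 were left out. Outside the chromosome 1 copy, mt-Tn and mt-Ty on the reverse strand and mt-Th on the forward strand had 0 reads. For tRNA genes alone the mean log2 ratio of reverse to forward reads per kilobase was 5.30, and without mt-Tc it was 2.07 (exact sign-flip permutation test, p = 0.031 for each). The latter was 4.2-fold, with 1.94-fold in the lowest tumour and 10.2-fold in the highest. Both ratios kept the lengths of tRNA genes inside the chromosome 1 copy, all at 0. These are mt-Td, mt-Tk, mt-Tg and mt-Tr on the forward strand and only mt-Ts1 on the reverse strand. The tRNA ratio without them was not tested.

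Between the mRNA genes of the strands the order depended on the partner. mt-Nd6, the only reverse-strand mRNA gene, encodes a membrane subunit of complex I and lies next to mt-Nd5, another complex I gene, on the forward strand. mt-Nd6 had 683, 516 and 360 reads in CTRL and 599, 804 and 463 in SEVO tumours. mt-Nd5 had 1322, 2071 and 1414 reads in CTRL and 1992, 1850 and 1216 in SEVO tumours. Per kilobase, mt-Nd6 stood above mt-Nd5 in 4 of 6 tumours, with ratios of 1.82, 0.876 and 0.895 in CTRL and 1.06, 1.53 and 1.34 in SEVO. The mean log2 ratio was 0.27 and did not pass the test (exact sign-flip permutation test, p = 0.219). Against all forward-strand mRNA genes outside the copy together, taken at full length, mt-Nd6 was 2.09-fold higher per kilobase on average (mean log2 ratio 1.06). It was higher in 6 of 6 tumours (exact sign-flip permutation test, p = 0.031). That set holds mt-Nd4 and mt-Co1, of which 62.2% and 51.1% of windows are copied. Per 1000 windows without a copy mt-Nd6 had 1215 reads on average, beside 1143 for mt-Nd4, 1003 for mt-Nd5 and 840 for mt-Co1. Those of mt-Cytb, mt-Nd1 and mt-Nd2 were 533, 355 and 331. The comparison by windows was not tested.

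**Figure D2:**
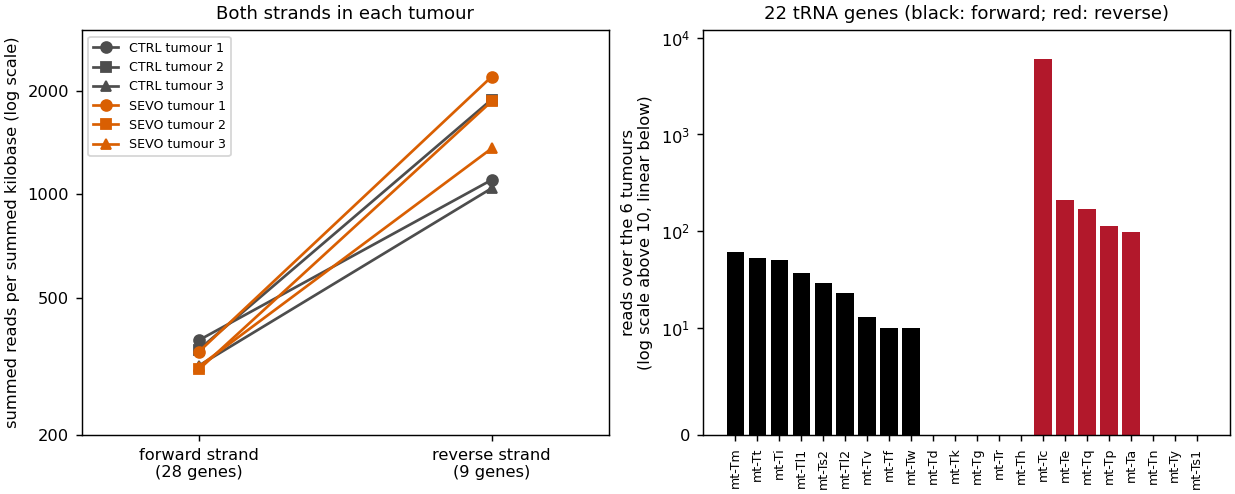
Left, summed reads per summed kilobase of forward-strand and reverse-strand genes, with 1 line per tumour and a log axis. Right, reads over all 6 tumours for the 22 tRNA genes on a symmetric log axis, where the 5 reverse-strand genes with reads (98 to 6080) stand above the 9 forward-strand genes with reads (10 to 60).

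By type, the 7 mRNA genes with reads took 66.2–72.7% of the mitochondrial reads. Complex I genes outside the strand pair above were mt-Nd1, mt-Nd2 and mt-Nd4, core subunits of the NADH dehydrogenase. mt-Nd1 had 366, 251 and 278 reads in CTRL and 424, 266 and 349 in SEVO tumours. mt-Nd2 had 320, 319 and 271 reads in CTRL and 386, 258 and 248 in SEVO tumours. By these unscaled reads SEVO tumour 1 was highest for both genes.

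mt-Nd4, whose first part lies inside the copy, had 409, 726 and 475 reads in CTRL and 720, 607 and 505 in SEVO tumours. mt-Cytb, the cytochrome b of complex III, had 466, 679 and 557 reads in CTRL and 750, 522 and 529 in SEVO tumours. mt-Co1, the catalytic subunit of complex IV, had 1076, 421 and 660 reads in CTRL and 480, 384 and 663 in SEVO tumours. CTRL tumour 1 was highest for mt-Co1 and lowest for mt-Nd4, so these genes did not share an order of tumours.

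The order of the mRNA genes by reads per kilobase changed with the part of each gene that was counted. As the strand setting is not given, these are reads on a gene and not measured levels of its mRNA. Mean reads per kilobase over 6 tumours were 1100 ± 307 (SD) for mt-Nd6, 901 ± 203 for mt-Nd5, 510 ± 94.2 for mt-Cytb and 416 ± 95.9 for mt-Nd4. They were 397 ± 165 for mt-Co1, 337 ± 71.1 for mt-Nd1 and 289 ± 50 for mt-Nd2. Neighbours from mt-Cytb to mt-Nd2 differed by less than their SDs. Per 1000 windows without a copy, mt-Nd4 had 1143 reads and mt-Co1 840, beside 1003 for mt-Nd5, 1215 for mt-Nd6 and 533 for mt-Cytb.

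The rRNA genes varied widely between tumours. mt-Rnr2, the 16S rRNA of the large mitochondrial ribosomal subunit, had 1281, 526 and 793 reads in CTRL and 169, 468 and 828 in SEVO tumours. mt-Rnr1, the 12S rRNA of the small subunit, had 124, 67 and 97 reads in CTRL and 27, 62 and 145 in SEVO tumours. SEVO tumour 1 was lowest for both, and both groups overlapped. The share of rRNA in the mitochondrial reads was 2.66–21.3%, and reads per kilobase of mt-Rnr2 over mt-Nd5 ranged from 0.0978 to 1.12. mt-Rnr2 held 3.45 to 6.24 times the reads per kilobase of mt-Rnr1. The authors had removed reads matching rRNA before alignment, so these counts are what that step left. Melanocyte markers (1260, 1191 and 1289 reads in CTRL, 582, 771 and 1761 in SEVO tumours) and Actb were also lowest in SEVO tumour 1. Macrophage markers (148, 223 and 194 reads in CTRL, 278, 256 and 204 in SEVO tumours) were highest in SEVO tumour 1. Adipocyte markers (56, 2 and 26 reads in CTRL, 7, 7 and 20 in SEVO tumours) and keratinocyte markers (45, 1 and 3 in CTRL, 5, 9 and 11 in SEVO tumours) were highest in CTRL tumour 1, as mt-Rnr2 was. The part of these markers in the rRNA values was not tested.

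The reverse-strand tRNA genes other than mt-Tc had far fewer reads. mt-Tq had 39, 44 and 23 reads in CTRL and 24, 20 and 20 in SEVO tumours. mt-Ta had 10, 26 and 20 in CTRL and 9, 23 and 10 in SEVO tumours. Both groups overlapped for either gene, for mt-Tq by the reads of CTRL tumour 3 alone.

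mt-Te had 28, 49 and 23 reads in CTRL and 36, 57 and 18 in SEVO tumours. mt-Tp had 8, 21 and 27 in CTRL and 29, 10 and 17 in SEVO tumours. mt-Tp was highest in SEVO tumour 1, and mt-Te in SEVO tumour 2 by reads but about level in CTRL tumour 2 and SEVO tumour 2 by CPM (61.5 and 61.1).

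The forward-strand tRNA genes with the most reads were mt-Tm (methionine), mt-Tt (threonine) and mt-Ti (isoleucine), with 60, 53 and 50 reads in all. mt-Tm had 8, 7 and 7 reads in CTRL and 16, 8 and 14 in SEVO tumours, mt-Tt had 9, 5 and 9 against 13, 6 and 11, and mt-Ti had 16, 1 and 3 against 11, 7 and 12. The other 6 with reads (mt-Tf, mt-Tv, mt-Tl1, mt-Tw, mt-Ts2 and mt-Tl2) had 0 to 11 reads in a tumour.

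The study asked whether priming with sevoflurane changed gene expression in the tumours. The 37 genes together had 6597, 7102 and 5690 reads in CTRL and 7358, 6449 and 6002 in SEVO tumours. As a share of counted reads this was 0.489%, 0.982% and 0.545% in CTRL and 0.851%, 0.721% and 0.676% in SEVO tumours. The Wilson 95% interval for counting error was widest in CTRL tumour 2, from 0.959% to about 1%. The shares overlapped, with 0.672% ± 0.27 in CTRL and 0.749% ± 0.0912 in SEVO (SD, n = 3 each; log2 difference 0.22, exact permutation test, two-sided p = 0.5).

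The direction of this share turned with the denominator. Without Gm10800 and Gm10801 the share was 0.96%, 0.995% and 0.844% in CTRL and 0.925%, 0.79% and 0.832% in SEVO tumours, and the log2 difference was -0.14 (exact permutation test, p = 0.2). Mitochondrial reads per 1000000 uniquely aligned reads were 225, 213 and 190 in CTRL and 176, 167 and 181 in SEVO tumours. By this measure all SEVO tumours lay below all CTRL tumours, with a log2 difference of -0.26 (exact permutation test, p = 0.1, the smallest that 3 tumours against 3 allow). Among 11 such group comparisons of mitochondrial shares and ratios, every p adjusted over them (Benjamini-Hochberg) was 0.55 or more.

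**Figure D3:**
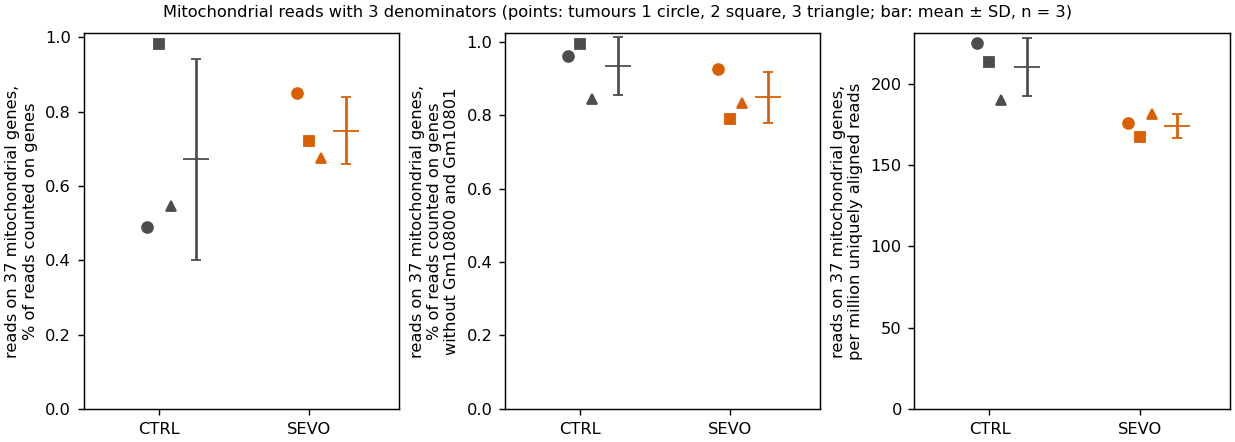
Reads on the 37 mitochondrial genes in each tumour as a percentage of counted reads, as a percentage of counted reads without Gm10800 and Gm10801, and per 1000000 uniquely aligned reads, with the mean ± SD of each group (n = 3). Only with uniquely aligned reads as the denominator do the groups not overlap, with 190 to 225 in CTRL and 167 to 181 in SEVO.

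The share of mitochondrial reads on the reverse strand was 17.8%, 28.4% and 19.6% in CTRL and 31.9%, 30.9% and 24.2% in SEVO tumours, with Wilson 95% intervals of at most ± 1.1 percentage points. CTRL tumour 2 lay among the SEVO tumours. The means were 21.9% ± 5.65 in CTRL and 29% ± 4.17 in SEVO (SD, n = 3 each; log2 difference 0.42, exact permutation test, p = 0.2). Without mt-Tc the log2 difference was 0.25 (p = 0.5 in the same exact test). The mt-Nd6 to mt-Nd5 ratio differed by 0.20 on the log2 scale (exact permutation test, p = 0.7).

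Gene by gene, no member passed a threshold in the edgeR quasi-likelihood comparison of SEVO with CTRL. Of the 37 genes, 15 had enough reads to be tested among 7561 genes, and all of these 15 overlapped between the groups. At an adjusted p under 0.05 the test called 0 members and 0% of all genes, and DESeq2 called 0 genes as well. At the thresholds of the study's methods, an unadjusted p under 0.02 and a change of at least 1.5-fold, edgeR called 0 members and 1.04% of all genes. DESeq2, run without the filter, called 49 of 42422 genes (0.116%) and 0 members at these thresholds. At an unadjusted p under 0.05 edgeR called 0 members and 4.36% of all genes (DESeq2 265 of 42422 genes). Groups without overlap were found for 8.56% of all genes tested.

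Of the 15 members, 6 were higher and 9 lower in SEVO, with a median log2 fold change of -0.06 beside -0.02 for all genes. The largest differences were those of mt-Rnr2 (log2 fold change -0.97, SE 0.55), mt-Tq (-0.86, SE 0.40) and mt-Co1 (-0.62, SE 0.44), each with an edgeR adjusted p of 0.741. Leaving out 1 tumour moved mt-Rnr2 to between -1.53 (without SEVO tumour 3) and -0.48 (without SEVO tumour 1), mt-Tq to between -1.06 (without CTRL tumour 3) and -0.48 (without CTRL tumour 2) and mt-Co1 to between -0.79 (without SEVO tumour 3) and -0.19 (without CTRL tumour 1). mt-Tq had the lowest unadjusted p in edgeR (0.0536). The log2 fold change was 0.46 for mt-Tc (SE 0.51, edgeR adjusted p = 0.788) and 0.12 for mt-Nd6 (SE 0.41, edgeR adjusted p = 0.911).

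Among the 6 reverse-strand genes tested, 3 were higher and 3 lower, and among the 9 forward-strand genes 3 were higher and 6 lower. The median log2 fold changes were -0.05 for the reverse and -0.06 for the forward strand. mt-Nd1 (0.10, SE 0.37), mt-Nd4 (0.06, SE 0.40) and mt-Te (0.01, SE 0.46) were near 0 on the higher side. mt-Nd2 (-0.15, SE 0.37), mt-Nd5 (-0.06, SE 0.45), mt-Cytb (-0.04, SE 0.39) and mt-Tp (-0.10, SE 0.57) were near 0 on the lower side, and all 4 turned to the higher side when libraries were scaled by size only. mt-Rnr1 (-0.43, SE 0.49), mt-Ta (-0.55, SE 0.57) and mt-Ti (0.45, SE 0.84) lay within their SE of 0. With 1 tumour left out mt-Ti ran from 0.13 (without CTRL tumour 2) to 2.16 (without CTRL tumour 1) and mt-Ta from -1.01 (without SEVO tumour 2) to -0.06 (without CTRL tumour 2). The edgeR adjusted p of all 15 was 0.741 to 0.996.

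Under the alternatives run, 3 members passed the thresholds of the study's methods, mt-Tc and mt-Rnr1 when a tumour was left out and mt-Tq with a stricter filter. Without CTRL tumour 2 the log2 fold change of mt-Tc was 1.25 (unadjusted p = 0.00797, edgeR adjusted p = 0.1), but 16.2% of all genes then passed the thresholds of the study's methods. Without SEVO tumour 3 that of mt-Rnr1 was -1.19 (unadjusted p = 0.0186, edgeR adjusted p = 0.344), beside 5.71% of all genes. With at least 10 reads required in every tumour, mt-Tq passed the same thresholds (-1.05, unadjusted p = 0.015, edgeR adjusted p = 0.879), beside 1.52% of all genes.

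**Figure D4:**
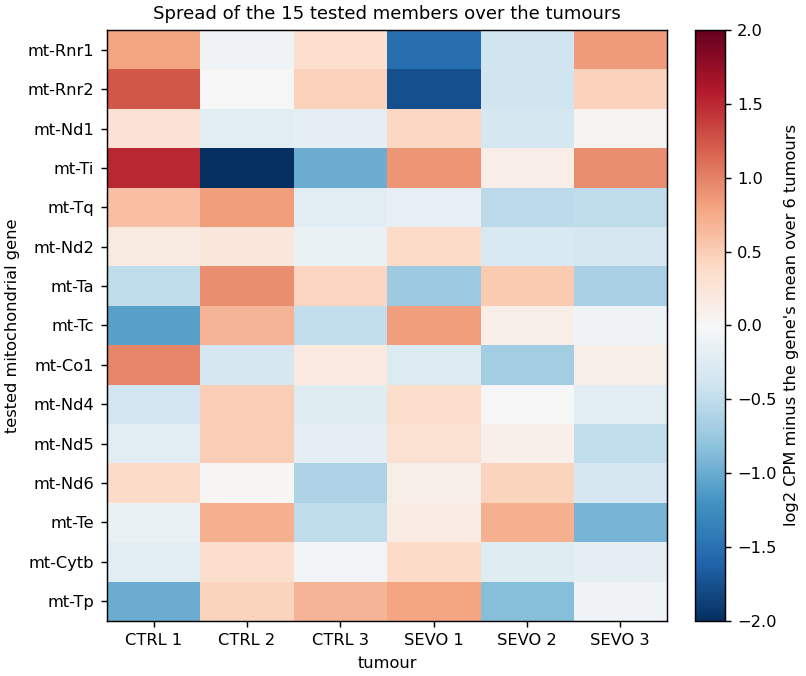
Log2 counts per 1000000 reads (CPM) of the 15 tested members in each tumour, minus the mean of the gene over the 6 tumours (colour scale from -2 to 2). mt-Rnr1 and mt-Rnr2 are lowest in SEVO tumour 1, mt-Tc is lowest in CTRL tumour 1, and no gene separates the groups.

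**Figure D5:**
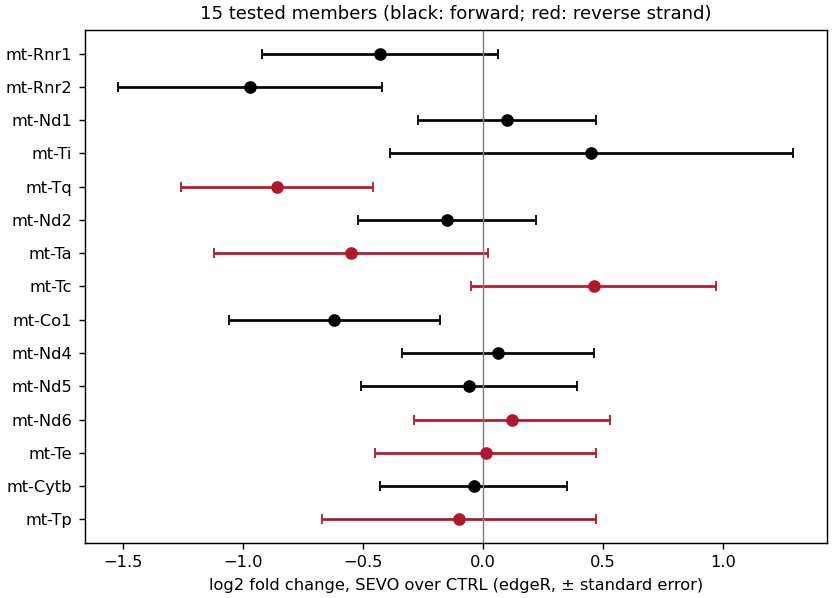
Log2 fold change of SEVO over CTRL with its standard error from edgeR for the 15 tested members in chromosome order, forward strand in black and reverse strand in red. The values run from -0.97 for mt-Rnr2 to 0.46 for mt-Tc, and none passed the test.

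Nuclear genes that act on mitochondrial DNA and RNA were followed in a list of 52, all present in the count tables, with a median of 39.5 reads per gene over the 6 tumours. Their reads too may come from either strand, as the strand setting is not given, and are not measured levels of mRNA. Of the 52 genes, 16 could be tested. SEVO was higher for 8 and lower for 8, with a median log2 fold change of 0.01 beside -0.02 for all genes. Only Nsun2, which methylates cytosines of nuclear-encoded and mitochondrial tRNAs, passed the thresholds of the study's methods, 1 of 16 beside 1.04% of all genes. It had 44, 29 and 39 reads in CTRL and 16, 22 and 22 in SEVO tumours, so that all SEVO tumours lay below all CTRL tumours. Its log2 fold change was -1.02 (SE 0.38, unadjusted p = 0.0175), which the edgeR adjustment over all genes did not keep (adjusted p = 0.741). It no longer passed with library size only, without the filter on low counts, in DESeq2, with the replicate block, or when any of the 6 tumours was left out. Without CTRL tumour 2 the genes that passed were instead Ssbp1, the mitochondrial single-stranded DNA binding protein (log2 fold change -1.73, SE 0.70), and Polg, the mitochondrial DNA polymerase (1.03, SE 0.40), beside 16.2% of all genes.

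By role, 3 of 10 genes of transcription and termination could be tested, 7 of 19 of RNA cleavage, stability and decay, 4 of 15 of rRNA and tRNA modification and 2 of 8 of mtDNA replication. The mitochondrial RNA polymerase Polrmt (33 reads in all) and the packaging and transcription factor Tfam (46 reads) were too low for the test. Lrpprc, which stabilises mitochondrial mRNAs, had 86 reads in all and a log2 fold change of -0.94 (SE 0.64, edgeR adjusted p = 0.741). Its partner Slirp had 8398 reads and a log2 fold change of 0.39 (SE 0.51, edgeR adjusted p = 0.797). Why the reads of these partners differed so widely was not tested.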

How the data were processed

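RNA from 3 CTRL and 3 SEVO tumours was sequenced on an Illumina instrument. The authors removed rRNA reads with SortMeRNA, trimmed with Trimmomatic 0.36, aligned with STAR 2.6.0c to GRCm38 (GENCODE M17), used SAMtools 1.8.3 and counted uniquely aligned reads per gene with HTSeq 0.9.1 (versions from the submitters' processing notes). The authors deposited raw read counts per gene. Summary rows that name no gene were kept out of library sizes. Only 2.06–4.61% of uniquely aligned reads were assigned to a gene by the counting, whose strand setting is not given. How many of the other reads lie on the opposite strand of a gene is not known. Shares and reads per kilobase were computed from these counts. All genes were fitted with edgeR 4.0.16 in R 4.3.3 (TMM, filterByExpr, quasi-likelihood test, Benjamini-Hochberg) and with DESeq2 1.42.0 as an alternative. Shares were compared by exact permutation tests over tumours in scipy 1.17.1. Gene models, coordinates and sequences came from GENCODE M21 (GRCm38), to which 53706 of 53801 identifiers matched. Nuclear copies were searched in its transcripts only, as no genome sequence was used here. Named with the value in every tumour are the mRNA, rRNA and reverse-strand tRNA genes and the 3 forward-strand tRNA genes with the most reads, with nuclear genes only where a result turns on them or from the list of 52. Polrmt, Tfam, Lrpprc and Slirp were named from that list after their values were seen. The members and lists were chosen with earlier results of these data known. The labels number the tumours but do not say which animals they came from, so the p-values measure the spread between these samples. Alternatives changed the normalization, the filter, the denominator, the members or the test, or left out a tumour.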

Additional observations from a re-analysis of the deposited data

How the results depend on the processing

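The mitochondrial share of counted reads reversed from a log2 difference of 0.22 to -0.14 without Gm10800 and Gm10801 in the denominator and to -0.26 with all uniquely aligned reads, while leaving out a tumour gave 0.03 to 0.53. Leaving out a tumour gave 0.29 to 0.62 for the reverse-strand share and 0.02 to 0.55 for the mt-Nd6 to mt-Nd5 ratio between the groups. The strand ratio, 2.17 on the log2 scale, was 2.07 to 2.29 when a tumour was left out, where 5 tumours allow no exact p below 0.05. It lay between 0.68 (without mt-Tc and the genes inside the copy) and 5.30 (tRNA genes) under the other choices of members. Those without mt-Tc, without the genes inside the copy and with mRNA genes outside it were chosen after seeing the data. Genes with an edgeR adjusted p under 0.05 numbered 0 in all 6 tumours and 0 to 31 when a tumour was left out, with the 31 in the fit without CTRL tumour 2. Members past the thresholds of the study's methods numbered 1 with at least 10 reads in every tumour and 0 to 1 when a tumour was left out. For the nuclear list the count was 0 with library size only, with no filter, with DESeq2 and with the replicate block, and 0 to 2 when a tumour was left out. Genes past these thresholds numbered 79 of 7561 tested (1.04%), beside 266 of 42423 without a filter (0.627%) and 49 of 42422 with DESeq2 (0.116%). They numbered 28, 32, 13 and 14 when CTRL tumours 1 and 3 and SEVO tumours 1 and 2 were left out in turn, 0.144% to 0.377% of the genes tested. There were 479 (5.71%) without SEVO tumour 3 and 1449 (16.2%) without CTRL tumour 2.

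Tumours with the same number did not deviate together (correlations of -0.399, 0.32 and 0.083), so the numbers were not taken as pairs. With a replicate block edgeR called 1 gene at an adjusted p under 0.05, which was no member. It called 129 of 7561 genes (1.71%) past the thresholds of the study's methods. The exact test within numbers gave p = 0.75 for the mitochondrial share (0.22) and p = 0.25 for the reverse-strand share (0.42). The latter is the smallest p this test allows, so it could not reach 0.05 for either share.

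Of 191 fold changes of single members under alternatives, 152 kept their direction and 39 turned, and all of those that turned lay on the same side of the adjusted threshold. With at least 10 reads in every tumour mt-Nd1 turned to -0.13, mt-Nd4 to -0.11, mt-Nd6 to -0.12 and mt-Te to -0.17, and with the replicate block mt-Te turned to -0.04. With library size only, no filter and DESeq2 in turn, mt-Nd2 was 0.08, 0.34 and 0.18, mt-Nd5 0.12, 0.37 and 0.22, mt-Cytb 0.15, 0.38 and 0.23, and mt-Tp 0.08, 0.30 and 0.15. mt-Rnr1 was 0.02 without a filter. Library size only moved the median of all genes from -0.02 to 0.22 and the values of single members with it. The median was -0.38 over 42423 genes with no filter and -0.55 over 42422 genes with DESeq2. Both are opposite in sign to the member values given above for those settings. Leaving out a tumour gave -1.19 to 0.03 for mt-Rnr1, -0.04 to 0.38 for mt-Nd1, -0.36 to 0.07 for mt-Nd2, -0.10 to 0.52 for mt-Nd4, -0.17 to 0.36 for mt-Nd5, -0.04 to 0.37 for mt-Nd6, -0.32 to 0.59 for mt-Te, -0.22 to 0.29 for mt-Cytb and -0.58 to 0.29 for mt-Tp. The cause of these changes was not tested. With 3 tumours a group, forward-strand tRNA genes with at most 60 reads in all and genes inside the chromosome 1 copy at 0 limited what could be compared.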
